A study of Mus musculus with 3 samples.

Results

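The genes described here carry the names of nuclear-encoded subunits of the mitochondrial respiratory chain and of ATP synthase. All were followed while mouse embryonic fibroblasts (MEFs) began to be reprogrammed. They were taken by name from a count table of 50507 gene names: Nduf genes of the a, b, c, s and v series for complex I, Sdha to Sdhd for complex II, Uqcr genes for complex III, Cox4 to Cox8 genes for complex IV and Atp5 genes for ATP synthase (complex V). After 6 names of pseudogenes (-ps) were left out, 82 genes remained, of which 37 belonged to complex I, 4 to complex II, 8 to complex III, 16 to complex IV and 17 to complex V. The name rule places Ndufa4 with complex I, although its protein is known as a part of complex IV, and it leaves out Cox4i1, Cyc1 and Ndufab1, which were read as a separate list. Placement was by name alone, so that a few genes, such as Atp5s and Atp5sl in complex V, need not be structural subunits.

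The study knocked down chromatin and transcription regulators to ask how they affect early reprogramming, and read the outcome by bulk CEL-Seq2, a method that counts 1 tag per transcript near its 3′ end through unique molecular identifiers. The cells were primary wild-type MEFs of the BL6 strain at passage 2, all of which carried lentiviruses with rtTA and a doxycycline-inducible cassette of Oct4, Sox2, Klf4 and c-Myc (tet-STEMCCA). For the screen they were reverse transfected with 40 nM of an siRNA pool against 1 of 33 genes, with a non-targeting siRNA (nt), or without siRNA (Mock), and were re-plated and induced 1 day later. The untransfected time course ran from Day00 to Day06, and its cells were re-plated before induction. Induction medium held doxycycline at 2 µg/mL together with the small molecules chiron at 3 µM and Alk5i at 0.25 µM, ascorbic acid at 50 µg/mL, LIF and serum. The screen was harvested at day 6, per the methods of the study.

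The series consisted of 3 sequenced pools, 1 per replicate, and each pool held a barcoded library of nearly every condition, so that the condition of a library came from its column name. Of 129 libraries, 127 passed the quality filter of the authors and were used: 98 siRNA, 3 nt, 5 Mock and 21 time-course libraries, in 42 conditions. siMtf1 had 2 libraries. The Mock libraries came as a pair in replicates 1 and 2, and 1 was used from replicate 3. Total counts ran from 29656 to 235292 per library with a median of 73279, and replicate 3 was the deepest, with a median of 127079 against 64227 and 63122. The 82 genes together took from 0.640 to 1.49% of the counts. Per the study, the siRNA transfections were done in triplicate and the replicates of the RNA sequencing, those of the time course included, were independent. Whether they came from separate preparations of MEFs is not given in the sources used here, so p-values measure the spread between these libraries. The targeted gene had fewer scaled counts in its own siRNA libraries than in the other transfected libraries for 23 of 33 siRNAs. Most targets had too few counts at day 6 to measure a knockdown, and Wdr5, for example, had 2, 3 and 2 counts in the siWdr5 libraries.

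The respiratory chain passes electrons from NADH (complex I) or succinate (complex II) through ubiquinone to complex III, cytochrome c and complex IV, where oxygen is reduced. Complexes I, III and IV pump protons across the inner mitochondrial membrane, and ATP synthase uses the gradient to make ATP. All subunits of complex II are encoded in the nucleus, whereas the other complexes combine nuclear subunits with a few made from mitochondrial DNA, and pluripotent cells are known to rely more on glycolysis than fibroblasts do.

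The promoters of the members are known for sites of NRF1, ETS proteins, YY1, ERR proteins and CREB. RefSeq gave a promoter, 250 bases before to 50 after the start of the gene, for 66 of the 82 members on GRCm38.p6, of which Atp5c1, Atp5d, Atp5j, Ndufa5 and Ndufa7 had more than 1 and were counted once if any of them matched. The letters searched, on both strands, were GCGCANGCG (NRF1), CCGGAAG (ETS), AAGATGG (YY1), AAGGTCA (ERR) and TGACGTCA (CRE), and since the ETS letters end with the AAG that opens the YY1 and ERR letters, 1 run of bases can match both. The NRF1 letters lay in a promoter of 20 of the 66 members (30.3%) and of 7.03% of all 27025 genes with a promoter. The ETS letters lay in 16 (24.2%, against 9.93%), the YY1 letters in 10 (15.2%, against 7.28%), the ERR letters in 8 (12.1%, against 5.38%) and the CRE letters in 4 (6.06%, against 2.03%). These shares describe letters in a window and not bound sites. The 250 bases before the start are printed for 3 members to which the results below return, Atp5l (a small subunit of the membrane part of ATP synthase), Uqcrh (the hinge protein of complex III) and Cox7a2 (a small subunit of complex IV), 5′ to 3′ on the strand of the gene, with matches in capitals. All 3 genes lie on the minus strand.
Atp5l, chr9:44920743-44920992: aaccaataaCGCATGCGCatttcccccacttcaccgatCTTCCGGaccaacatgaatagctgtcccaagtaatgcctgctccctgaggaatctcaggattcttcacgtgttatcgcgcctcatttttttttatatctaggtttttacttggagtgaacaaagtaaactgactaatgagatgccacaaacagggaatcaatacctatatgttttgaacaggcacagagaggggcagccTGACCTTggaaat
Uqcrh, chr4:116075071-116075320: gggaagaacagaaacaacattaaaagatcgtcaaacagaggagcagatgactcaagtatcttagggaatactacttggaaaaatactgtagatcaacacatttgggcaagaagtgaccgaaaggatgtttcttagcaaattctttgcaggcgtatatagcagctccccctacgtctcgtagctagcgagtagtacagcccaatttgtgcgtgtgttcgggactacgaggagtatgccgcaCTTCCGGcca
Cox7a2, chr9:79759854-79760103: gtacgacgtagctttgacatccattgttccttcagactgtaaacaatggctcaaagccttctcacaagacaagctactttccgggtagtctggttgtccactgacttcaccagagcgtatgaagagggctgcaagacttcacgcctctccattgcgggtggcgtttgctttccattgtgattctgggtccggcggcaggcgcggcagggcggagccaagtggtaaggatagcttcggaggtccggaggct
Within the printed bases, counted from the start of the gene, Atp5l held the NRF1 letters at -241 to -233, the ETS letters at -212 to -206 and the ERR letters at -13 to -7. Uqcrh held the ETS letters at -10 to -4. Cox7a2 held none of the 5, nor did Ndufa4.

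Levels are given as CPM, the counts of a gene per 1000000 counts of the tested genes after TMM scaling. Because CEL-Seq2 counts 1 tag per transcript, CPM were not divided by transcript length. Over the 127 libraries the 82 genes summed to a mean of 11870 CPM, of which complex I gave 3921, complex II 191, complex III 1593, complex IV 2268 and complex V 3900. Uqcrh was the highest, at a mean of 864 CPM, followed in complex III by Uqcr10 (214) and Uqcrq (149). In complex IV, Cox8a (743), Cox7a2 (316) and Cox6b1 (307) were the highest, and in complex V the proton-ring gene Atp5g3 (707), the stalk gene Atp5f1 (460) and Atp5g1 (415). Complex I was led by Ndufa4 (488), Ndufa12 (256) and Ndufa2 (227).

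At this depth 1 count was worth between 4.52 and 40.4 CPM, so many members could not be followed. Of the 82 genes, 80 had a count in some library and 47 passed the filter on low counts: 18 of complex I, 1 of complex II, 6 of complex III, 10 of complex IV and 12 of complex V. The 47 held 92.5% of the summed CPM. The other 35 were not tested, and among them Atp5d (67.1 CPM), a subunit of the ATP synthase rotor, had the highest mean. Complex II was the least visible complex. Sdha, the flavoprotein that oxidises succinate, had a mean of 119 CPM and was the one member tested, while Sdhc (40.1), Sdhd (16.9) and Sdhb (14.4) were not.

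Several subunits of complex IV and ATP synthase exist as isoforms from separate genes, some of them known from muscle, heart or testis. Most of these were at or near the floor of detection. Cox6a2 and Cox8b had 0 counts in the 127 libraries, which allows up to 3 counts by counting error, Cox7a1 had 4 counts, Cox7b2 and Cox8c had 1 count each, and Ndufa4l2 had 7. Their widely expressed partners had 1071 (Cox6a1), 6784 (Cox8a), 2834 (Cox7a2) and 4393 (Ndufa4) counts. Cox6b2, known from testis, stood apart with 270 counts in 100 libraries, against 2907 counts of Cox6b1. It had 0 counts in all 3 Day00 libraries and 2, 5 and 6 counts at Day06. Against a floor of 3 counts over the Day00 group, Cox6b2 was at least 3.49-fold higher at Day06, a value that rests on 13 counts. It did not pass the filter on low counts, and was called higher at Day06 in both fits that tested it, limma on the deposited log2 values and edgeR without that filter. Of the 3 genes for the same ATP synthase c subunit, Atp5g3 and Atp5g1 gave nearly all the counts (6333 and 3696), and Atp5g2 had 420. Atp5g2 had 4, 4 and 13 counts in nt, 0, 0 and 5 at Day06 and 1, 0 and 4 in siWdr5, and did not pass the filter. With the counts of its near-identical copy added it did, and was then higher in nt than at Day06 and lower in siWdr5 than in nt (edgeR).

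The summed level of the 82 genes was lowest in the fibroblasts at Day00, at 7340 ± 560 CPM (SD, n = 3), and stood at 11071 ± 283 CPM at Day06. The sums were 7348, 6776 and 7896 CPM in the 3 Day00 libraries and 11335, 10772 and 11105 CPM in those of Day06, with no overlap. The rise was not even from day to day: the mean was 7808 CPM at Day01, 10097 at Day02, 7997 at Day03, 9409 at Day04 and 10955 at Day05. Day03 was thus nearer to Day00 than to Day02. By complex, the Day06 mean was 1.75-fold that of Day00 for complex IV, 1.52-fold for complex I, 1.48-fold for complex III, 1.43-fold for complex V and 1.16-fold for complex II. The sums are given as a description, and no test was run on them.

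**Figure D1:**
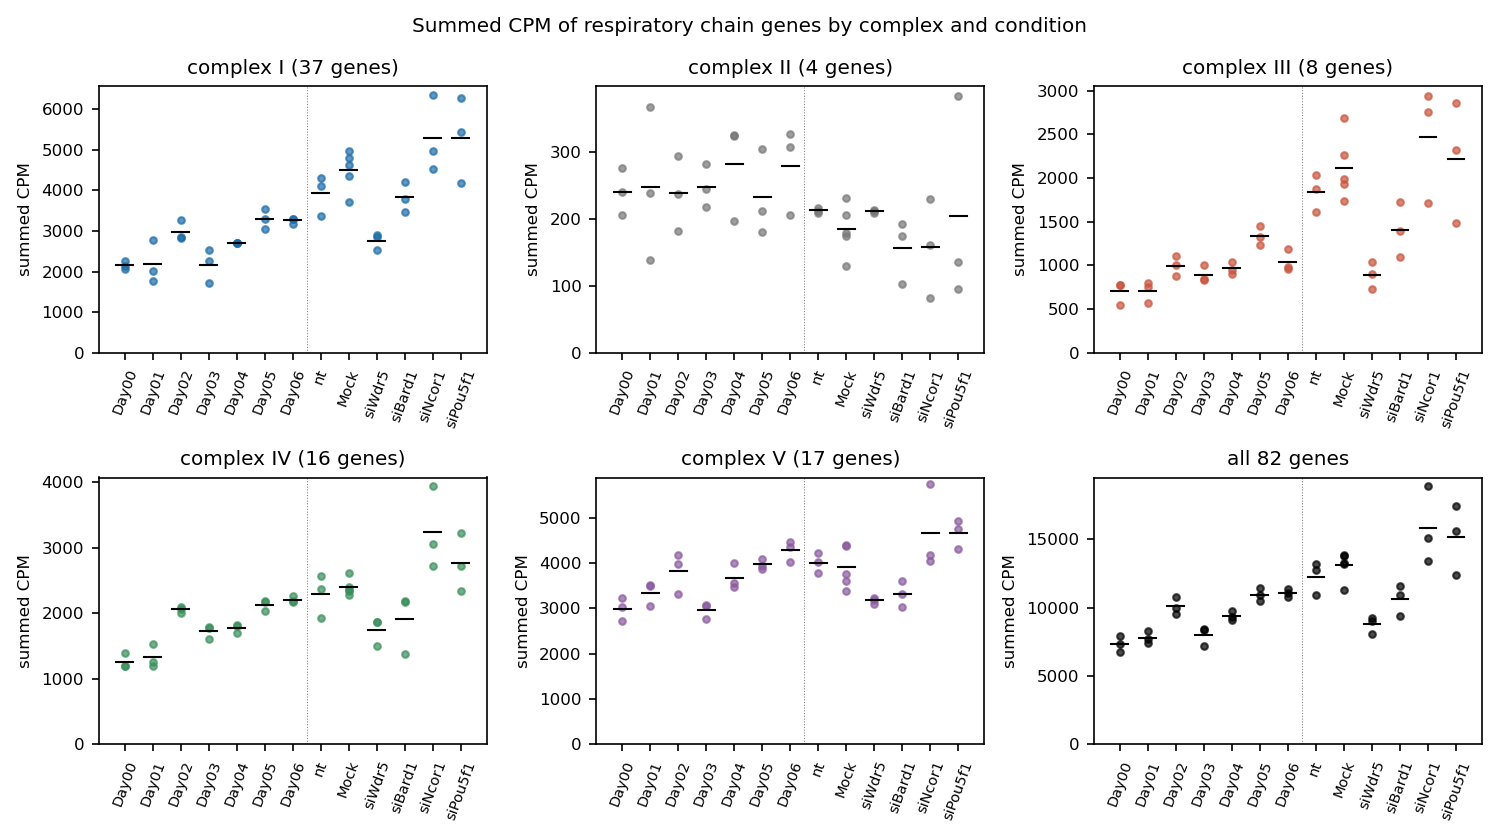
Summed CPM (y axis) of the genes of each complex and of all 82 genes in 13 conditions (x axis); each point is a library, the bar is the mean, and the dotted line parts the untransfected days from the transfected cells. Complexes I, III and IV were lowest at Day00 or Day01, complex III was higher in nt and Mock than on any untransfected day, and complex II did not follow the others.

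Across the 7 days, 20 of the 47 tested members changed (42.6%), against 42.5% of the 3013 genes tested, in an edgeR quasi-likelihood F-test at a Benjamini-Hochberg adjusted p under 0.05, the threshold used throughout. The share of members was thus that of all genes. The calls fell on 5 of 6 members of complex III, 5 of 10 of complex IV, 5 of 12 of complex V and 5 of 18 of complex I, and Sdha was not among them. The lowest adjusted p-values (edgeR) were those of Ndufa4 (1.37e-07), Atp5l (5.97e-06), Cox7a2l (2.74e-05), Atp5g1 (0.000108) and Uqcrq (0.00191). Cox7a2l is known as an assembly factor that joins complexes III and IV, a role that was not examined in these BL6 cells. The count of 20 was 12 with DESeq2 and 9 without the replicate term, and 14, 10 and 8 without replicates 1, 2 and 3.

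Between Day00 and Day06, 11 of the 47 members rose and 0 fell. Of all tested genes 10.7% rose and 11.5% fell. The median log2 fold change of the members was 0.58, against 0.05 for all genes tested, and 43 of 47 were above 0. The members that rose came from complex I (Ndufb9, Ndufa13, Ndufa10 and Ndufa4), complex III (Uqcr11), complex IV (Cox5b, Cox7a2, Cox7a2l and Cox8a) and complex V (Atp5l and Atp5g1).

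Atp5g1 was at 226, 191 and 273 CPM in the Day00 libraries and at 682, 560 and 484 CPM at Day06. All 3 later libraries lay above all 3 earlier ones, and the log2 fold change was 1.21 (SE 0.26, edgeR adjusted p 7.83e-05). Atp5l went from 41.0, 21.2 and 124.1 CPM to 237, 199 and 273 CPM, again without overlap, with a log2 fold change of 1.61 (SE 0.39, edgeR adjusted p 0.000521). Its Day00 values rest on 2, 1 and 15 counts, and 12 near-identical copies of its 3′ end are annotated, among which the counting could have split its reads.

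Of complex I, Ndufa4 stood at 144, 191 and 116 CPM at Day00 and at 282, 307 and 273 CPM at Day06, a log2 fold change of 1.02 (SE 0.31, edgeR adjusted p 0.00837). The groups did not overlap. Ndufb9, a subunit of the membrane arm, stood at 41.0, 63.5 and 74.5 CPM and later at 237, 235 and 150 CPM (log2 fold change 1.60, SE 0.43, edgeR adjusted p 0.00244), also without overlap. Ndufa13 rose by 1.27 on the log2 scale (SE 0.48) with overlapping groups, and Ndufa10 by 1.18 (SE 0.46), with edgeR adjusted p-values of 0.0398 and 0.0496.

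In complex IV, Cox7a2 stood at 103, 63.5 and 124.1 CPM at Day00 and at 193, 163 and 266 CPM at Day06 (log2 fold change 1.06, SE 0.37, edgeR adjusted p 0.0225). Cox5b, a zinc-binding subunit, went from 41.0, 84.7 and 74.5 CPM to 148, 199 and 164 CPM (log2 fold change 1.29, SE 0.46, edgeR adjusted p 0.0276). Neither pair of groups overlapped. Cox8a rose by 0.58 (SE 0.22) and Cox7a2l by 0.98 (SE 0.36) on the log2 scale, with edgeR adjusted p-values of 0.0395 and 0.0366, and the Cox7a2l groups overlapped. Uqcr11 of complex III had the largest fitted change, but its Day00 libraries held 0, 0 and 1 counts and its Day06 libraries 1, 5 and 9. The ratio of its pooled CPM was 12.1, with an exact 95% counting interval from 1.86 to 508 (edgeR adjusted p 0.00927).

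Several of the highest members did not pass. Uqcrh was at 554, 318 and 389 CPM at Day00 and at 475, 488 and 477 CPM at Day06, inside the range of Day00. Atp5g3 averaged 707 ± 52.8 and 979 ± 65.9 CPM (SD, n = 3) on those days, without overlap, and its log2 fold change of 0.45 (SE 0.19, edgeR adjusted p 0.0759) did not pass. Sdha, at 185, 275 and 174 CPM and later at 208, 217 and 130 CPM, had a log2 fold change of -0.24 (SE 0.37) with overlapping groups. The count of 11 was 5 with RLE scaling, under which 34.7% of all called genes were higher in place of 48.1%, 5 with DESeq2, 4 without the filter on low counts, 6 without the replicate term, and 9, 6 and 5 without replicates 1, 2 and 3. In none of these did a member fall. Atp5g1, Atp5l and Ndufb9 kept their calls in every alternative that tested them, and the fit of the compared libraries alone did not test Ndufb9.

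**Figure D2:**
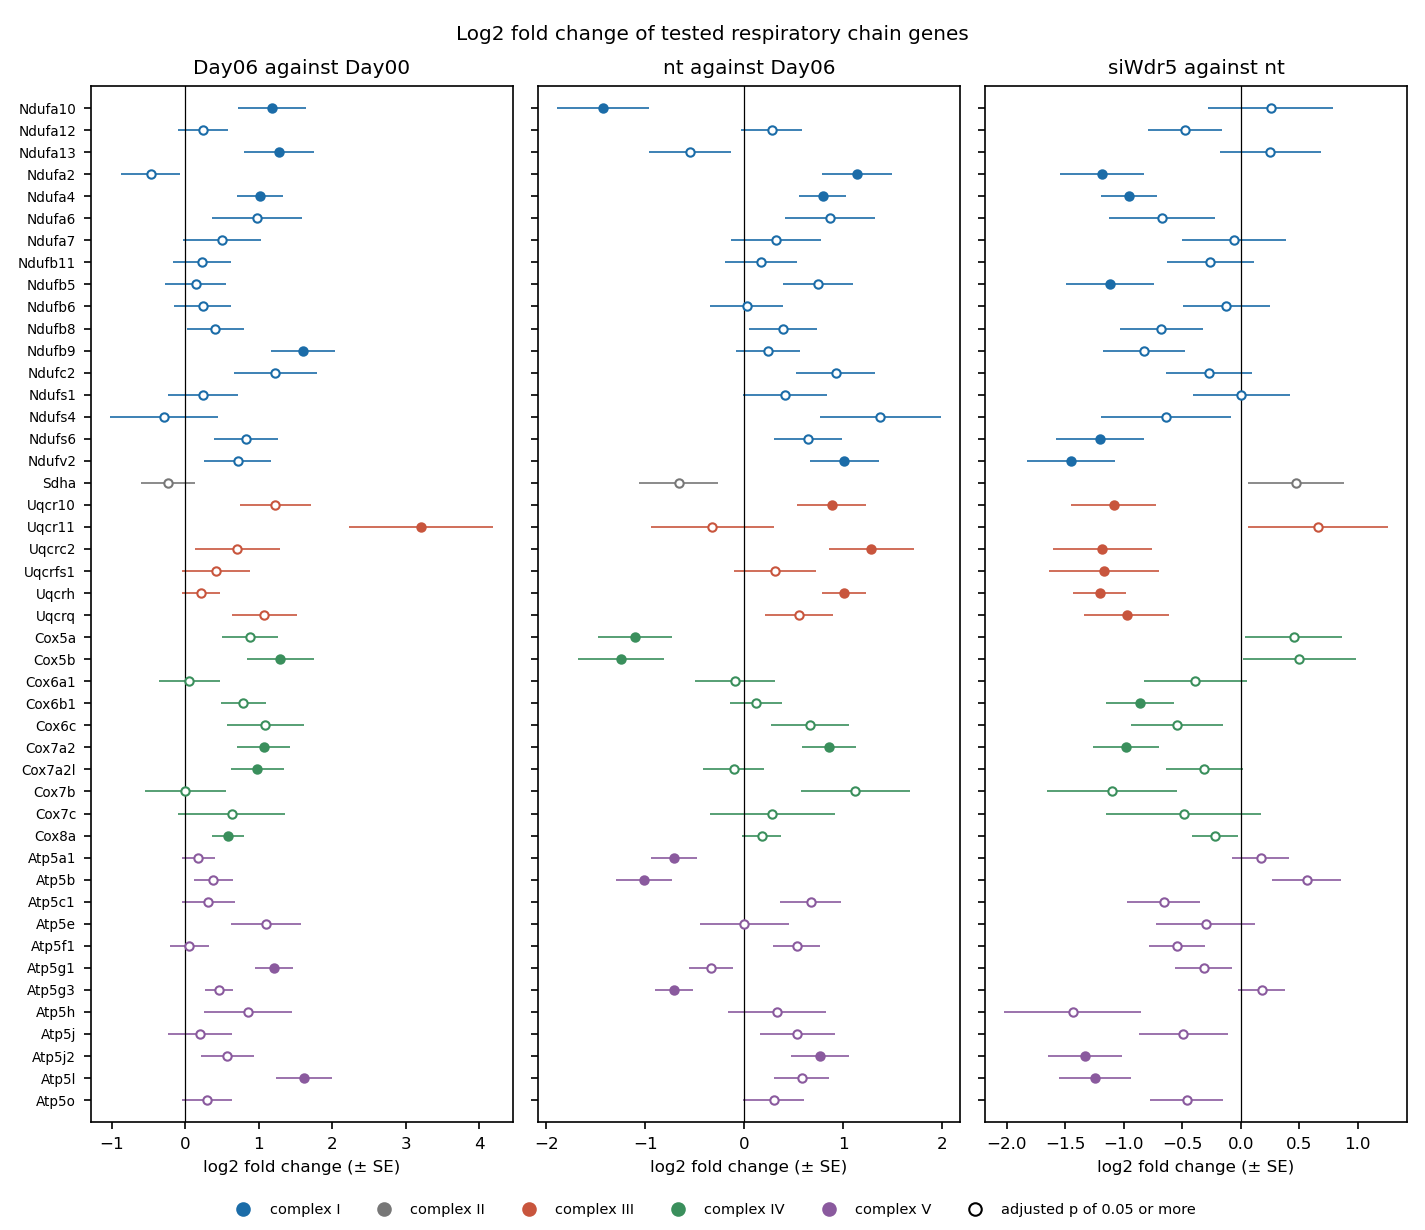
Log2 fold change with its standard error (x axis) for tested members (y axis, by complex) in 3 comparisons; filled points have an edgeR adjusted p under 0.05. Filled points lie to the right in Day06 against Day00 (11), on both sides in nt against Day06 and to the left in siWdr5 against nt (14).

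The days between were each set against the same Day00 libraries. Over Day01 to Day05, 28 of 235 member-day pairs were called higher and 0 lower, against 7.69% higher and 8.89% lower of all pairs of a gene and a day. Day01 gave 0 calls among the members (edgeR), with 1 member at an unadjusted p under 0.05, against 9.89% of all genes called. At Day02, 5 members were higher (5.14% of all genes were): Uqcr11, Atp5l, Cox7a2l, Atp5c1 (the gamma subunit of the ATP synthase rotor) and Ndufb6. At Day03 (5.11% of all genes) these were Uqcrc2 (a core protein of complex III), Atp5l and Cox7a2l, and at Day04 (8.3% of all) Uqcr11, Atp5l, Ndufb9 and Ndufa4. Cox7a2l, at 61.6, 233 and 99.3 CPM in the Day00 libraries, was at 350, 289 and 317 CPM at Day03 (log2 fold change 1.37, SE 0.35, edgeR adjusted p 0.00278).

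Day05 had the most called members of these days, with 16 higher (34.0%), against 16.8% of all genes tested. It was also the day with the most calls over all genes, at 31.9% in either direction. The 16 included 5 of the 6 tested members of complex III, whose median log2 fold change was 1.36. Uqcrc2 was at 20.5, 21.2 and 66.2 CPM at Day00 and at 102, 186 and 187 CPM at Day05 (log2 fold change 1.89, SE 0.49, edgeR adjusted p 0.000975). Ndufa4 reached 355, 451 and 412 CPM, above every Day00 and Day06 library, with a log2 fold change of 1.55 over Day00 (SE 0.28, edgeR adjusted p 2.41e-06). Uqcrh, at 584, 690 and 638 CPM, rose by 0.63 (SE 0.24, edgeR adjusted p 0.0349) and was called at this day alone among those of the time course. The counts of these days depend on the scaling and on replicates: the 28 calls were 14 with RLE scaling, 12 with DESeq2, 15 without the filter on low counts, 12 without the replicate term, and 22, 13 and 7 without replicates 1, 2 and 3.

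Alongside these changes, other cell markers moved. The summed CPM of 9 fibroblast markers, collagens and vimentin among them, were 6769 ± 960 at Day00, 3396 ± 396 at Day01 and 2572 ± 510 at Day06 (SD, n = 3), and 5 of the 7 tested fell at Day06 with 0 higher. The 8 markers of epithelial and early reprogramming cells were too low to test and summed to 31.99 CPM at Day00 and 196 CPM at Day06. The 6 macrophage markers summed to 159 CPM at Day00 and 44.8 CPM at Day06. The 4 endothelial markers were at 0 at both days, with Cdh5 at 0 in every library, and the 6 muscle markers summed to 68.0 and 11.4 CPM, with Myod1 at 0 throughout. At Day05, 6 of the 7 tested fibroblast markers were lower than at Day00 and 0 were higher. Transcripts of mitochondrial DNA took from 13.8 to 15.7% of the counts at Day00 and from 20.4 to 21.5% at Day05. The part of these shifts in the changes of the respiratory chain genes was not tested. In bulk libraries, fewer cells of a type and less RNA per cell cannot be told apart.

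The nt libraries were compared with untransfected Day06, so that cells at the same day differ in the transfection and its handling. Calls were made in both directions: 8 of 47 members were higher in nt (17%, against 15.6% of all genes tested) and 7 were lower (14.9%, against 11.0%), shares near those of all genes. The median log2 fold change was 0.32 for the members and -0.01 for all genes, and with limma on the deposited log2 values, which cover 73 members, the medians were -0.03 and -0.21. Of complex III, 3 of 6 were higher and 0 lower. The catalytic genes of ATP synthase were among the lower ones. The 9 fibroblast markers summed to between 2259 and 3160 CPM at Day06 and between 1315 and 1582 CPM in nt, with 3 of 7 tested lower and 0 higher, and the 8 epithelial and early reprogramming markers to 196 and 174 CPM with overlapping libraries. All transcripts of mitochondrial DNA took from 15.99 to 16.6% of the counts at Day06 and from 22.8 to 26.3% in nt. The part of these in the changes was not tested.

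Uqcrh had the lowest adjusted p. It was at 475, 488 and 477 CPM at Day06 and at 1232, 852 and 866 CPM in nt, a log2 fold change of 1.01 (SE 0.22, edgeR adjusted p 0.000175), and the 5 Mock libraries ranged from 1043 to 1600 CPM. The other 2 of complex III were Uqcrc2 (log2 fold change 1.29) and Uqcr10 (0.88), whose calls were lost in 5 of 11 and 8 of 12 alternatives. Ndufa4, at 282, 307 and 273 CPM at Day06, stood at 433, 479 and 531 CPM in nt (log2 fold change 0.79, SE 0.23, edgeR adjusted p 0.0067) and between 596 and 961 CPM in Mock. Ndufa2 (1.14), Ndufv2 (1.01), Cox7a2 (0.86) and Atp5j2 (0.77) were the other members higher in nt, and of the 8 the groups of Ndufv2, Uqcr10 and Cox7a2 overlapped.

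The lower members included both subunits of the catalytic head of ATP synthase. Atp5b was at 445, 380 and 450 CPM at Day06 and at 233, 239 and 188 CPM in nt (log2 fold change -1.01, SE 0.28, edgeR adjusted p 0.00351). Atp5a1 went from 579, 687 and 579 CPM to 433, 404 and 319 CPM (log2 fold change -0.71, SE 0.23, edgeR adjusted p 0.0135), and Atp5g3 of the proton ring from 1053, 958 and 927 CPM to 699, 613 and 515 CPM (-0.71, SE 0.19, edgeR adjusted p 0.00282). None of these 3 overlapped. Ndufa10 (-1.43), Cox5b (-1.25) and Cox5a (-1.10) were also lower, without overlap. Ndufa10 and Cox5b, higher at Day06 than at Day00, thus had log2 fold changes of opposite sign in these 2 comparisons, which share the Day06 libraries. Their calls at Day06 against Day00 were each lost in 8 of 11 alternatives. Those in nt against Day06 were lost in 3 of 11 (Ndufa10) and 5 of 12 (Cox5b). Within ATP synthase, Atp5j2, a small subunit of its membrane part, was higher in nt while Atp5a1, Atp5b and Atp5g3 were lower. The call of Atp5j2 was lost in 8 of 12 alternatives, and those of Atp5a1, Atp5b and Atp5g3 in 5, 3 and 2 of 12.

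**Figure D3:**
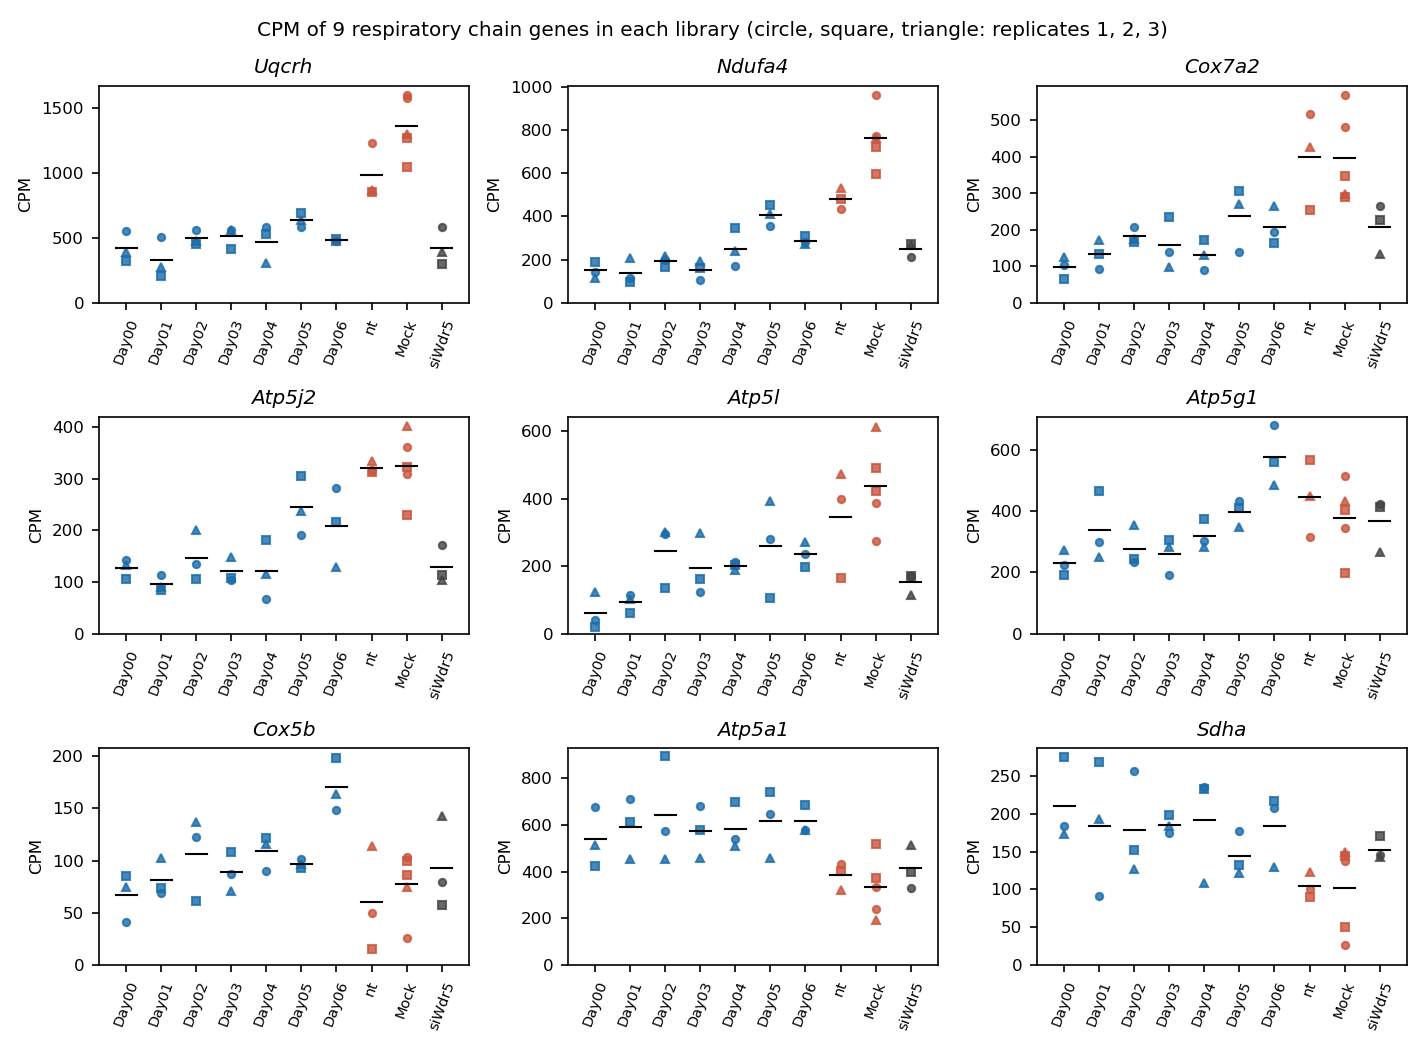
CPM (y axis) of 9 members in each library of the 7 days, nt, Mock and siWdr5 (x axis); symbols give the replicate and bars the mean. Uqcrh, Ndufa4, Cox7a2 and Atp5j2 were lower in siWdr5 than in nt on average, while Atp5a1 and Sdha were highest on untransfected days.

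The 15 calls in nt against Day06 were 8 without the replicate term, 1 without the filter on low counts (Uqcrh), 1 with limma on the deposited log2 values (Atp5g3), and 10, 9 and 4 without replicates 1, 2 and 3. RLE scaling gave 5 higher and 7 lower members, and 44.2% of all called genes higher in place of 58.6%, a share that was 37.5% with limma. Mock against Day06, which shares the Day06 libraries, gave 14 members higher (29.8%, against 17.4% of all genes) and 4 lower (8.51%, against 11.5%). The 2 transfected controls differed little from each other. Mock against nt gave 0 calls among the members (edgeR) and 5 at an unadjusted p under 0.05, with 1.56% of all genes called. RLE scaling and DESeq2 each gave 1 call, of Ndufa4, and adding the counts of near-identical copies gave 1, of Ndufb11. The nearest to the threshold was Ndufa4, with a log2 fold change of 0.66 (SE 0.20, edgeR adjusted p 0.059) and no overlap between the 5 Mock and the 3 nt libraries. Ndufb11, a membrane-arm subunit of complex I, was at 166, 150 and 122.5 CPM in nt and between 224 and 336 CPM in Mock (log2 fold change 0.88, SE 0.32, edgeR adjusted p 0.149).

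The siRNA against Wdr5, a shared subunit of the complexes that methylate histone H3 at a lysine, gave more called members than any of the other 32. It also gave the most calls over all genes, with 27.2% called in either direction, against 29.8% of the members. siBard1 followed with 10.3% of all genes. Of the 47 members, 14 were lower in siWdr5 than in nt and 0 were higher, against 15.1% lower and 12.2% higher of all genes tested. The median log2 fold change was -0.49 for the members and 0.00 for all genes, and 11 of 47 were above 0. In complex III 5 of the 6 tested members fell, with a median of -1.13. The others were 5 of 18 in complex I, 2 of 10 in complex IV and 2 of 12 in complex V.

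In complex III, Uqcrh stood at 1232, 852 and 866 CPM in nt and at 581, 298 and 389 CPM in siWdr5, without overlap. Its log2 fold change was -1.20 (SE 0.23, edgeR adjusted p 7.17e-06), the lowest p of the members, and it kept its call under every alternative tried. An annotated pseudogene, Uqcrh-ps2, is nearly identical to its 3′ end. Uqcrc2 (-1.18), Uqcrfs1 (-1.17, the Rieske iron-sulfur protein), Uqcr10 (-1.08) and Uqcrq (-0.97) fell with it, and Uqcr11 had a log2 fold change of 0.66 (SE 0.60) that did not pass. These 4 calls were less stable than that of Uqcrh: Uqcr10 was lost in 6 of 13 alternatives, Uqcrc2 in 7 of 13, Uqcrq in 9 of 13 and Uqcrfs1 in 10 of 12, and DESeq2 and the fit without the replicate term called Uqcrh alone of complex III among the 5.

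In complex I, Ndufv2, an iron-sulfur subunit of the NADH-binding module, fell from 416, 299 and 172 CPM to 92.4, 99.5 and 104 CPM (log2 fold change -1.45, SE 0.38, edgeR adjusted p 0.00146). Ndufa4 fell from 433, 479 and 531 CPM to 211, 270 and 266 CPM (-0.95, SE 0.24, edgeR adjusted p 0.00108). In both genes every siWdr5 library was below every nt library. Ndufs6 (-1.20), Ndufa2 (-1.18) and Ndufb5 (-1.12) also fell.

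In ATP synthase, Atp5j2 stood at 316, 314 and 335 CPM in nt and at 172, 114 and 104 CPM in siWdr5 (log2 fold change -1.33, SE 0.32, edgeR adjusted p 0.000569), with no overlap. Atp5l fell by 1.24 (SE 0.31, edgeR adjusted p 0.000853), although its siWdr5 libraries, at 172, 171 and 114 CPM, overlapped the lowest nt library at 165 CPM. Cox7a2 (-0.98) and Cox6b1 (-0.86) fell in complex IV. The catalytic genes were not among those lower: Atp5a1 and Atp5b had log2 fold changes of 0.17 (SE 0.24) and 0.56 (SE 0.29). Sdha, at 99.9, 89.7 and 122 CPM in nt and 145, 171 and 142 CPM in siWdr5, had one of 0.47 (SE 0.41, edgeR adjusted p 0.398).

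The comparisons of nt with Day06 and of siWdr5 with nt used the same 3 nt libraries, so that a deviation of these libraries enters both with opposite sign. The 14 calls were 8 with DESeq2, 5 without the filter on low counts, 9 without the replicate term, 1 with limma on the deposited log2 values (Uqcrh), and 9, 12 and 2 without replicates 1, 2 and 3. RLE scaling gave 10 lower members and 1 higher, Atp5b, and 60.9% of all called genes higher in place of 44.7%. The 9 fibroblast markers summed to 1484 CPM in nt (1315 to 1582) and 4527 CPM in siWdr5 (4187 to 4705), with 5 of 7 tested markers higher, Col1a1 by 2.67 and Col1a2 by 2.05 on the log2 scale. The 8 epithelial and early reprogramming markers summed to 174 CPM in nt and 48.3 CPM in siWdr5. Whether these shifts bear on the lower respiratory chain genes was not tested.

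Over all siRNAs and nt together, 24 of 47 members changed (51.1%), against 44.8% of all genes tested. Uqcrh (edgeR adjusted p 6.05e-21), Ndufa4 (3.49e-14), Cox8a (1.4e-08), Atp5l (1.57e-08) and Atp5j2 (5.58e-08) had the lowest adjusted p-values. The 24 were 12 without the filter on low counts, 9 with limma on the deposited log2 values, 13 without the replicate term and 11 without replicate 3. Single siRNAs gave few calls. The 32 siRNAs other than siWdr5, each against the same nt libraries, gave 5 higher and 4 lower calls in 1504 member-siRNA pairs, with 0.953% higher and 0.847% lower of all pairs. The calls fell on 6 siRNAs, and 26 gave none. The median log2 fold change of the members ran from -0.38 (siBard1) to 0.38 (siNcor1) and was above 0 for 20 of the 32.

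In siNcor1, against a corepressor of nuclear receptors, 3 members were higher (6.38%, against 3.42% of all genes). Cox8a was at 716, 703 and 727 CPM in nt and at 1203, 942 and 1551 CPM in siNcor1 (log2 fold change 0.82, SE 0.18, edgeR adjusted p 0.00129). Atp5j, a coupling-factor subunit of the ATP synthase stalk, rose by 1.29 (SE 0.32, edgeR adjusted p 0.00374). Ndufb11 rose from 166, 150 and 122.5 CPM to 510, 293 and 350 CPM (log2 fold change 1.40, SE 0.31, edgeR adjusted p 0.00105). In each of the 3 genes the groups did not overlap, and all 3 calls were lost without replicate 3, without the filter on low counts and with limma, and that of Atp5j also without replicate 2 or the replicate term. Ndufb11 was also higher in siPou5f1 (1.17, with 3.58% of all genes higher) and siApex1 (1.19, with 0.531%), and these 2 calls were lost when nt and Mock together served as the control and when any 1 of the 3 replicates was left out. In siPou5f1 the fibroblast markers summed to between 744 and 1088 CPM, below all nt libraries, and transcripts of mitochondrial DNA took 15.1% of the counts in replicate 1 against 24.1 and 21.3% in the others, and their part in the call was not tested.

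Lower calls fell on complexes III and IV. siBard1, against the partner of Brca1 in DNA repair, had Uqcrq at 112, 103 and 97.2 CPM, against 166, 239 and 253 CPM in nt (log2 fold change -1.16, SE 0.37, edgeR adjusted p 0.0246), and Cox7a2 at -1.01 (SE 0.28, edgeR adjusted p 0.00794). The 2 calls were 4.26% of the members, against 4.78% of all genes lower in siBard1, and that of Uqcrq was lost in 7 of 12 alternatives, nt and Mock together as the control among them. The 9 fibroblast markers of siBard1 summed to 2770 CPM, with 4 of 7 tested higher. The 8 epithelial and early reprogramming markers summed to 54.0 CPM in siBard1 (0 to 85.7) and 174 CPM in nt (139 to 233). The part of these shifts in the 2 calls was not tested. Uqcrh was lower in the libraries labelled siHdac1, at 384, 478 and 438 CPM (log2 fold change -1.14, SE 0.27, edgeR adjusted p 0.00579), and in siTdrd7, at 312, 401 and 567 CPM (-1.08, SE 0.23, edgeR adjusted p 0.00333). Both groups lay below all nt libraries, and 0.697 and 0.0996% of all genes were lower. The libraries labelled siHdac1 included 2 of only 33709 and 34279 counts, without which the call was lost (1 library then remained, assumed to vary like the other groups), as it was without the replicate term, replicate 1 or replicate 3. Hdac1 itself was at 151 CPM there (2, 2 and 14 counts), against 83.4 CPM in the other transfected libraries. In siTdrd7 the call was lost without replicate 1, replicate 2 or the replicate term and with limma. The 9 calls were 16 with DESeq2, 16 with the counts of near-identical copies added, 27 with nt and Mock together as control, 2 without the filter on low counts, 3 with limma on the deposited log2 values, 4 without the replicate term, and 5, 4 and 1 without replicates 1, 2 and 3.

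The summed level of the 82 genes put the conditions in an order, given as a description. The 3 nt libraries were at 12756, 10903 and 13185 CPM, and 19 of the 33 siRNA means lay inside that range. The means of siWdr5, siBard1, siEny2 and the libraries labelled siEp300 and siPrkdc lay below it, although Ep300 (47.0 against 34.7 CPM) and Prkdc (15.8 against 10.2 CPM) were not lower there than in the other transfected libraries, and those of 9 siRNAs above it. siWdr5, at 9245, 8060 and 9027 CPM, was the one siRNA with every library below the lowest nt library. siNcor1 (15806 ± 2840 CPM, SD, n = 3), siPhf1 (14824 ± 1410) and siWhsc1l1 (14123 ± 1114) had every library above the highest, and siPhf1 and siWhsc1l1 gave 0 called members (edgeR), with 8 and 7 at an unadjusted p under 0.05, against 363 and 374 of all 3013 genes, of which 1.92 and 1.76% were called. Most neighbours in this order overlapped in their libraries. Gene by gene, the lowest mean fell on an untransfected day for 31 of the 47 tested members, 10 each at Day00, Day01 and Day03, and on an siRNA for the other 16, among them Ndufa2 in siWdr5 (99.1 CPM). The highest mean fell on an siRNA for 37 members, with 11 in siNcor1 and 5 in siWhsc1l1, and on an untransfected day for 8, with 4 at Day06. Of the 42 conditions 33 were siRNAs and 7 were untransfected days. By complex, siWdr5 stood at 0.483-fold of the nt mean for complex III, 0.702-fold for complex I, 0.761-fold for complex IV, 0.793-fold for complex V and 0.991-fold for complex II.

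**Figure D4:**
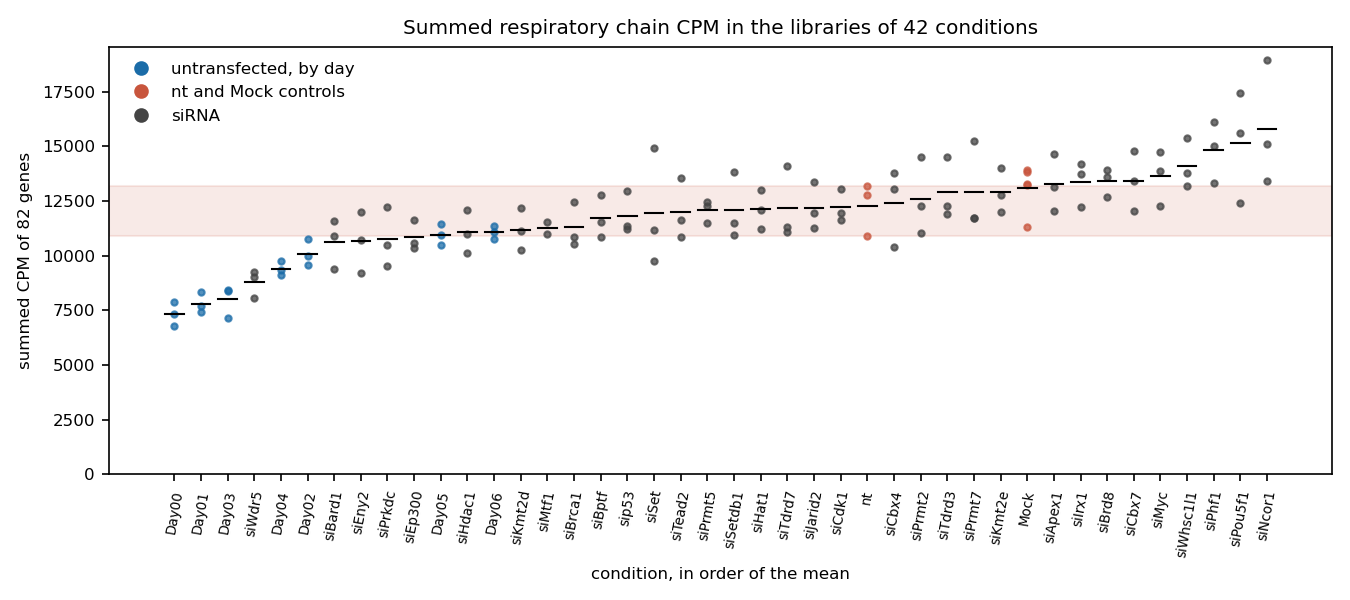
Summed CPM of the 82 genes (y axis) in every library of the 42 conditions (x axis, in order of the mean); points are libraries, bars are means, colours part untransfected days, controls and siRNAs, and the shaded band is the range of the 3 nt libraries. Day00 is the lowest condition at 7340 CPM, siWdr5 is the lowest siRNA at 8777 CPM, and siNcor1 is the highest at 15806 CPM.

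Other genes of the same pathway were read from lists. The 13 subunits encoded by mitochondrial DNA, tested in the same fits, gave 9 higher and 0 lower at Day05 against Day00. At Day06 against Day00 they gave 4 higher and 3 lower. They gave 12 higher and 0 lower in nt against Day06, 2 higher in Mock against nt, and 2 higher and 5 lower in siWdr5 against nt. Their summed CPM were 77170 at Day00, 116200 at Day05, 85310 at Day06, 138100 in nt, 147800 in Mock and 134900 in siWdr5. Between nt and siWdr5 their ranges, 113500 to 154800 and 121000 to 149100 CPM, overlapped, whereas those of the nuclear members did not. Of 8 subunits and carriers outside the name rule, 6 were tested. Cycs, cytochrome c itself, was higher in nt than at Day06 (log2 fold change 1.20, SE 0.29, edgeR adjusted p 0.000699) and lower in siWdr5 than in nt (-1.12, SE 0.29, edgeR adjusted p 0.00158), and Usmg5, a small ATP synthase subunit, was higher at Day06 than at Day00 (2.05, SE 0.70, edgeR adjusted p 0.0213). Atpif1, the inhibitor of ATP synthase, was higher in nt than at Day06 (0.99) and higher in siNcor1 than in nt (1.17).

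Assembly and supply genes had few members with enough counts. Of 44 assembly factors only 4 had enough counts, and Ndufaf4 alone was called, higher at Day05 (log2 fold change 1.59) and Day06 (1.17) than at Day00. Of 12 regulators of mitochondrial biogenesis 1 was tested and 0 were called (edgeR). Of 17 genes of the citric acid cycle and pyruvate dehydrogenase 7 were tested. Idh3g (1.57) and Idh2 (1.10) rose at Day06 over Day00, Idh2 was lower in nt than at Day06 (-1.21), and 0 were called in siWdr5. Of 6 carriers of the inner and outer membrane, Vdac3 was lower at Day06 than at Day00 (-1.03), and Slc25a3, the phosphate carrier, and Vdac2 were lower in nt than at Day06 (-1.09 and -1.35).

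Members are short transcripts, with a median of 838 bases for the 47 against 2545 bases for the other tested genes, and transcript length moved with the fold changes of all genes. In siWdr5 against nt, other genes under 1000 bases had a median log2 fold change of -0.63 and 35.5% of them were lower, and those of 2000 bases or more had a median of 0.38 with 6.74% lower. The members had -0.49 with 33.3% lower under 1000 bases (27 genes), -0.65 with 35.7% lower from 1000 to under 2000 bases (14 genes, against -0.22 with 15.4% lower in other genes) and 0.09 with 0 lower at 2000 bases or more (6 genes). In nt against Day06 the medians were 0.32 for members and 0.63 for other genes in the shortest class, 0.54 and 0.07 in the middle class and -0.50 and -0.34 in the longest. At Day06 against Day00 they were 0.82 and 0.43, 0.40 and 0.09, and 0.32 and -0.14. In the shortest class, the median of the members thus lay above that of other genes in siWdr5 and at Day06 and below it in nt. In the middle class it lay below in siWdr5 and above in nt and at Day06. In the longest class it lay below in siWdr5 and nt and above at Day06. Across the other genes, Spearman's rho between length and log2 fold change was -0.26 at Day06 against Day00, -0.42 in nt against Day06 and 0.49 in siWdr5 against nt, given as a description over genes that share libraries. The part of length in the members' changes was not tested.

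**Figure D5:**
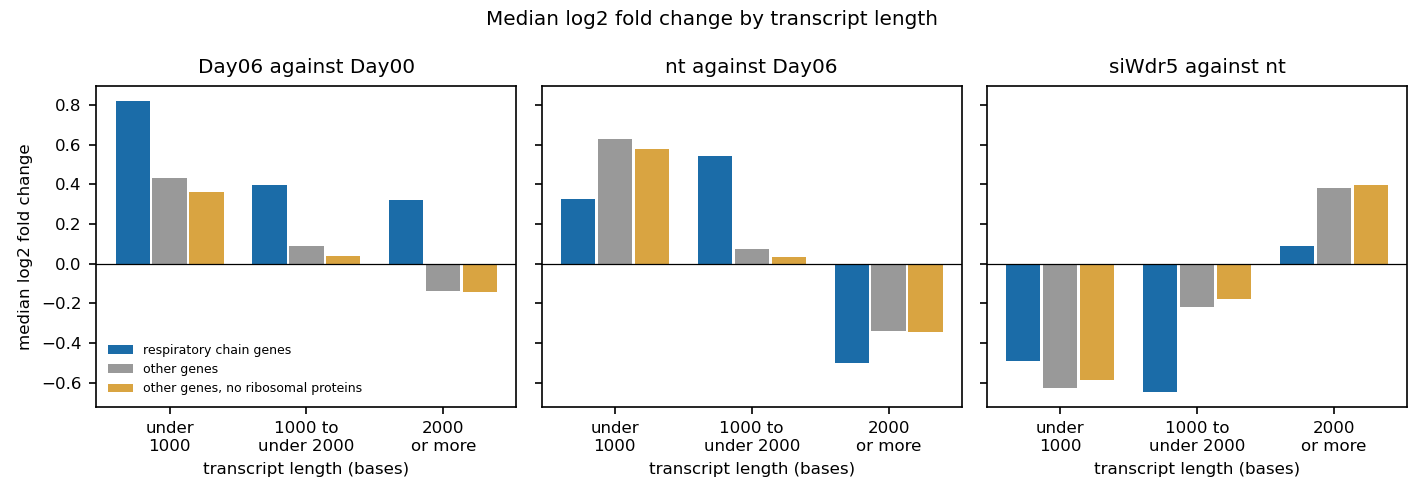
Median log2 fold change (y axis) by transcript length class (x axis, bases) for the tested members, for all other tested genes and for other genes without ribosomal protein genes, in 3 comparisons; bars are medians over genes and carry no error. In siWdr5 against nt, medians under 1000 bases were -0.49 for members and -0.63 for other genes.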

How the data were processed

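Bulk CEL-Seq2 libraries, 1 per condition in each of 3 pools, were sequenced by the authors. Their reads had been placed on mm10 by Bowtie2 and collapsed to molecules per gene by the CEL-Seq2 pipeline with GENCODE vM13. The table deposited from this step holds counts without scaling. A second deposited table holds log2 CPM of filtered libraries, from which the authors had regressed out the batch, and it served 1 alternative. Mock columns of a replicate share a name. In replicate 3 the Mock library that passed was found by its correlation with the log2 table (0.978, against 0.0393 for the other), and 2 libraries with 6403 and 7981 counts were left out.

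Counts of all genes were fitted together in edgeR 4.0.16 (R 4.3.3) with TMM scaling, filterByExpr by condition, and terms for condition and replicate, which is the sequenced pool, over 127 libraries and 3013 tested genes. Each comparison had its own Benjamini-Hochberg adjustment, and calls were made at 0.05. DESeq2 1.42.0 and limma 3.58.1 on the log2 values were alternatives, as were RLE scaling, totals without mitochondrial genes, no filter, no replicate term, compared libraries alone, nt and Mock as 1 control, and each replicate left out. Deviations from condition means had a median correlation of 0.0981 between libraries of the same replicate number and -0.0685 between others. The tests were tried on simulated data.

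The members and lists were chosen with earlier results of these data known. Genes named are members past the threshold, up to 10 per direction in a main comparison (beyond which the others called at Day06 and in siWdr5 are named too) and 3 per other siRNA, the 3 highest per complex, the 5 lowest p-values of each F-test, fixed isoform families and complex II, with up to 4 genes of lowest p per other list. Other members named to show a level were picked after their values were seen. Lengths (longest protein-coding transcript) came from GENCODE vM21 on GRCm38. A copy was near-identical at 95% over 100 or more of the last 300 bases, which held for 18 members. The values of 1 member are counted but not reported here. Intervals and floors cover counting error only.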

Additional observations from a re-analysis of the deposited data

Results flagged for a closer look

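Among the 5 Mock libraries, 53 values (each tested member and the summed CPM of each complex and of all members) were checked for a library far from the other 4, and 3 were found, where chance alone gives about 1 in 20. Ndufb6 was at 49.6 CPM in 1 library and between 172 and 202 CPM in the others. Ndufs6 was at 335.5 CPM in 1 library and between 194 and 223 CPM in the others. The summed CPM of all 82 members was 11295 in 1 library and between 13231 and 13897 in the others, and this library also gave the low value of Ndufb6. No other condition had enough libraries for this check. The Mock libraries of replicates 1 and 2 came in pairs, so that the 5 were not all from separate replicates.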

How the results depend on the processing

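Of 97 recomputed counts of called members, 53 stayed within 1.5 times the reported count and 44 did not. Across the days, the 20 became 12 without the filter on low counts, 12 with DESeq2 and 9 without the replicate block. For Day06 against Day00, the 11 became 5 (RLE scaling), 4 (no filter), 5 (DESeq2) and 6 (no block). For Day01 to Day05, the 28 became 14 (RLE), 15 (no filter), 12 (DESeq2) and 12 (no block). For nt against Day06, the 15 became 1 (no filter), 1 (limma on the deposited log2 values) and 8 (no block). For Mock against nt, the 0 became 1 with RLE, 1 with DESeq2 and 1 with near-identical copies added. For siWdr5, the 14 became 5 (no filter), 8 (DESeq2), 1 (limma) and 9 (no block). For the other siRNAs, the 9 became 2 (no filter), 16 (DESeq2), 3 (limma), 4 (no block), 27 (nt and Mock together) and 16 (copies added). Across siRNAs and nt, the 24 became 12 (no filter), 9 (limma) and 13 (no block). The cause was not tested, except that the fit without the filter adjusts over more genes and the limma fit tests 73 members of 10568 genes. Leaving out each replicate in turn gave 8 to 14 across the days, 5 to 9 at Day06, 7 to 22 at Day01 to Day05, 4 to 10 in nt, 0 to 0 in Mock, 2 to 12 in siWdr5, 1 to 5 in the other siRNAs and 11 to 19 across siRNAs. Apart from Mock, the lowest counts came without replicate 3, the deepest.

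For Day06 against Day00, nt against Day06, siWdr5 and the other siRNAs, the 49 called pairs of a member and a comparison had 592 alternative values, and calls at Day01 to Day05 and in Mock against Day06 were not followed gene by gene. Of these 374 kept direction and call, 218 kept direction alone and 0 reversed. Of the 49, 4 kept the call in each alternative that tested them: Atp5g1, Atp5l and Ndufb9 at Day06, and Uqcrh in siWdr5. Over all genes, RLE scaling moved the median log2 fold change from 0.05 to -0.11 at Day06, from -0.01 to -0.15 in nt and from 0.00 to 0.18 in siWdr5, where the members' medians were then 0.42, 0.18 and -0.32. In nt the members' median was -0.03 with limma. The alternatives without libraries under 40000 counts and with copies added were chosen after seeing the data. Fits of the compared libraries alone tested 18 to 47 members and were not run for Day01 to Day05 or the other siRNAs. At this depth 35 members had too few counts to test, and 7 libraries held fewer than 40000 counts.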
